A study of Mus musculus with 6 samples.

Results

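Fatty acid oxidation was followed through 32 genes of the carnitine shuttle, mitochondrial and peroxisomal beta-oxidation, the electron transfer flavoproteins and the peroxisome proliferator-activated receptors (PPARs). They were picked by gene symbol, and all 32 have a row among the 16179 genes of the table. The libraries come from microglia, the resident macrophages of the brain, sorted from hippocampi of male mice aged 10 months. Every mouse carried the Grn null allele of strain B6.129S4(FVB)-Grntm1.1Far/Mmja, so both groups lack progranulin, and wild-type mice were not analysed here. Live CD11b+ CD45lo cells were parted by BODIPY, a dye for neutral lipid, into a droplet-low fraction (BODIPY-low, 3 libraries) and a droplet-rich fraction (BODIPY-high, 3 libraries). Each library holds the pooled hippocampi of 2 mice. Whether libraries of the 2 fractions came from the same mice is not stated in the labels, and p-values reflect the spread among the 6 libraries alone, which may be technical.

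Beta-oxidation shortens fatty acids by repeated rounds of dehydrogenation, hydration, a second dehydrogenation and thiolysis, each round releasing acetyl-CoA. Long chains enter mitochondria as carnitine esters, and peroxisomes run a parallel set of enzymes that starts with an oxidase and handles very long and branched chains. Fatty acids for either route can be drawn from lipid droplets. PPAR alpha and PPAR delta are nuclear receptors that switch on many of these genes in liver and muscle.

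Recovered reads ran from 24982215 to 34899425 per library, with overlap between the fractions (p = 0.5 in an exact two-sided permutation test that cannot go below 0.1). Grn, the targeted gene, had 416, 625 and 990.1 normalised reads (counts divided by 1 size factor per library) in BODIPY-low against 468, 657 and 1614 in BODIPY-high replicates 1, 2 and 3. Where along the gene these reads lie was not analysed here, so they do not check the deletion. The 8 microglia markers, led by Csf1r, took 5.34% to 6.005% of reads in BODIPY-low against 4.81% to 5.16% in BODIPY-high libraries. The groups also differ in markers of other cells. The 10 choroid plexus markers, led by Ttr, took 0.0299%, 0.00588% and 0.0133% of reads in BODIPY-low against 0.322%, 0.264% and 0.426% in BODIPY-high replicates 1, 2 and 3, and all 10 rose (median log2 fold change 4.60). The 10 neutrophil markers, led by Ngp, took 0.292%, 0.113% and 0.115% in BODIPY-low against 0.00182%, 0.00851% and 0.000748% in BODIPY-high libraries, and 9 of them fell. For each of these 3 lists the groups did not overlap (p = 0.1 in an exact two-sided permutation test, its lower limit). None of the choroid plexus markers was at 0 in all BODIPY-low libraries, and their summed level was 1626 to 8556 normalised reads there and 74624 to 118052 in BODIPY-high libraries. The part of these cells in the results that follow was not tested. In these sorted pools, a change in the number of cells of a type and a change in RNA per cell cannot be told apart.

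Of 18 genes of the mitochondrial steps after the carnitine shuttle, 13 rose in BODIPY-high libraries by limma (median log2 fold change 0.46). Acadm, Acads, Acadsb, Eci2 and Decr1 did not pass the test, nor did most of the peroxisomal enzymes and the carnitine shuttle. Still, 5 of 6 peroxisomal and 4 of 5 shuttle members had a positive fold change, as had 6167 of all 12821 tested genes. Their medians were 0.25 and 0.31 on the log2 scale. The summed peroxisomal level was 16609.5 to 18309 normalised reads in BODIPY-low against 18902 to 19757 in BODIPY-high libraries. The summed shuttle level overlapped between the groups. Whether the compartments differ as a whole was not tested. Of 31 members with a mean of at least 10 normalised reads, 15 rose and 0 fell at an adjusted p below 0.05 (limma over all 12821 tested genes). None fell at an unadjusted p below 0.05 either, and edgeR called 14 rises and 0 falls and DESeq2 17 and 0. The limma count is 48.4% of the members, and 9.79% of all tested genes rose and 3.52% fell. Among the 16 members not called, 13 had a positive fold change. For 22 members the lowest BODIPY-high value exceeded the highest BODIPY-low value, which was so for 18.0% of all tested genes. The median log2 fold change was 0.37 over the members and -0.01 over all tested genes. Only Acaa2 and Cpt1c among the 15 changed by more than 1 on the log2 scale. The number called fell to 7 without BODIPY-low replicate 2, to 8 without BODIPY-low replicate 3 and to 7 without BODIPY-high replicate 3. The call of 7 members, Cpt1c, Acadvl, Hadhb, Acaa2, Eci1, Etfa and Etfb, held in each of the 15 alternative analyses.

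**Figure D1:**
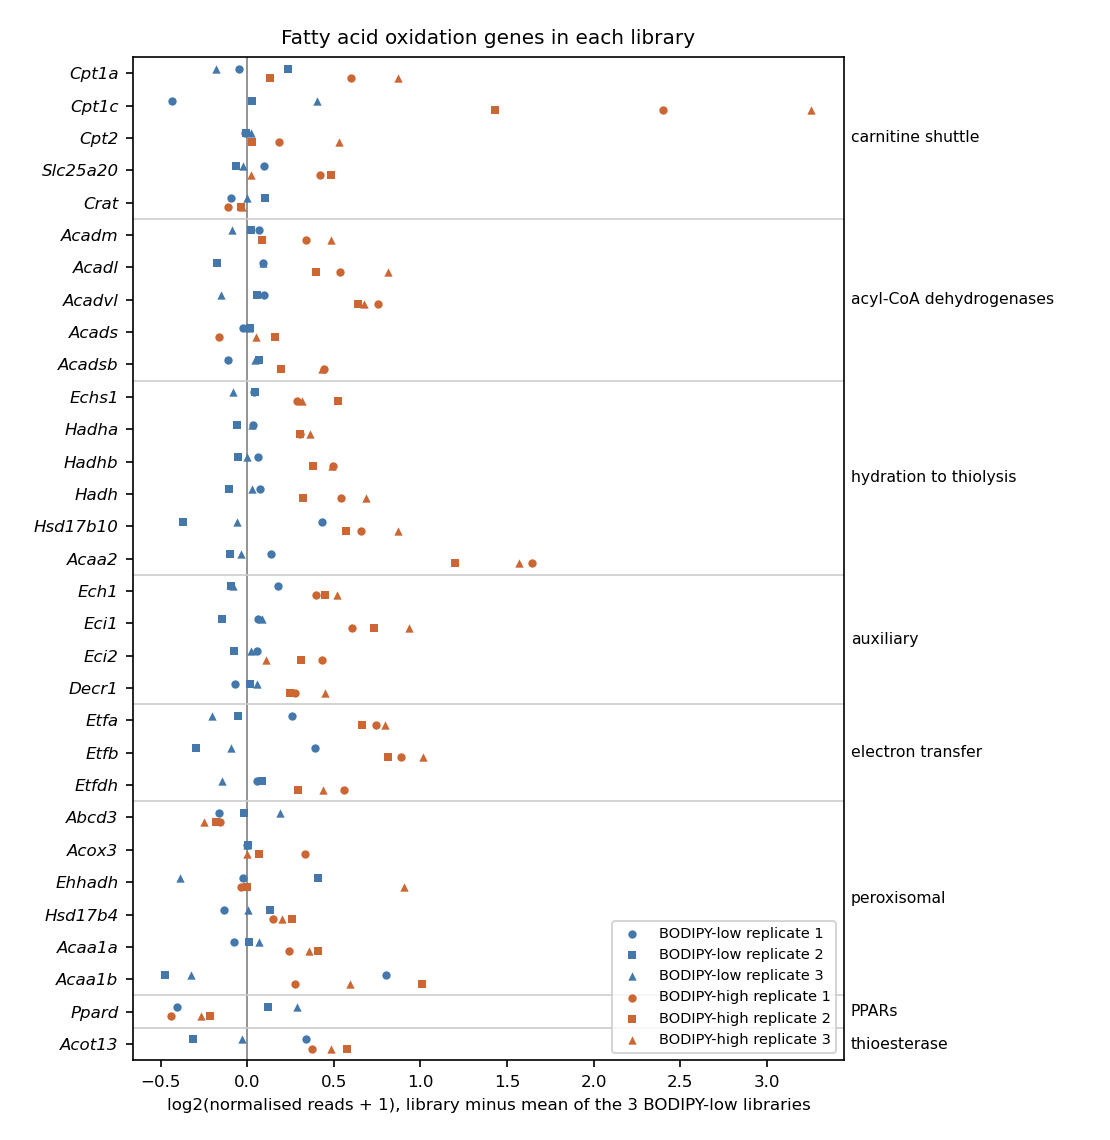
Level of each of the 31 tested genes in each library, as log2(normalised reads + 1) minus the mean of the 3 BODIPY-low libraries (x axis), by step (rows). Blue signs are BODIPY-low and orange signs BODIPY-high libraries. Between Echs1 and Etfdh every orange sign lies to the right of every blue sign of its gene, while the groups overlap in Crat, Acads, Acox3 and Abcd3.

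The carnitine shuttle moves long-chain acyl groups into the mitochondrial matrix. Cpt1a encodes the outer membrane transferase that sets the rate of entry in most tissues (GRCm38 chromosome 19, 3322334 to 3385733). Cpt1a counted 1624, 1977 and 1482 normalised reads in BODIPY-low against 2550.4, 1839 and 3076 in BODIPY-high replicates 1, 2 and 3. BODIPY-high replicate 2 lay below BODIPY-low replicate 2, so the groups overlapped (log2 fold change 0.53, SE 0.18, adjusted p = 0.0715). Without BODIPY-high replicate 2 the adjusted p of Cpt1a was 0.00982, and with DESeq2 it was 0.0131. Cpt1c, an isoform best known from neurons and located in the endoplasmic reticulum, had 18.3, 25.6 and 33.4 reads in BODIPY-low against 137, 69.1 and 248 in BODIPY-high libraries. The groups did not overlap, and Cpt1c rose (log2 fold change 2.36, SE 0.47, adjusted p = 0.00788). Per kilobase of transcript Cpt1a stood 45.4 times above Cpt1c in BODIPY-low against 12.4 times above it in BODIPY-high libraries.

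The other shuttle genes did not pass. Cpt2, the inner membrane transferase, had 1117, 1119 and 1145 normalised reads in BODIPY-low against 1281, 1148 and 1629 in BODIPY-high libraries (log2 fold change 0.25, adjusted p = 0.279). Slc25a20, the carnitine-acylcarnitine carrier, had 424 to 475 and 450.5 to 621 reads (0.31, adjusted p = 0.268). Crat, the acetyltransferase that buffers short acyl groups, was the most abundant shuttle gene per kilobase. It had 3530, 4047 and 3764 reads in BODIPY-low against 3492, 3680 and 3693 in BODIPY-high libraries, which overlapped (-0.06, SE 0.09, adjusted p = 0.719).

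The acyl-CoA dehydrogenases take the first step inside mitochondria and divide the work by chain length. Acadvl, for very long chains (chromosome 11, 70010183 to 70015411), counted 1942, 1886 and 1633 normalised reads in BODIPY-low against 3058, 2824 and 2893 in BODIPY-high replicates 1, 2 and 3. The lowest BODIPY-high library stood well above the highest BODIPY-low library, and Acadvl rose (log2 fold change 0.69, SE 0.10, adjusted p = 0.00136). Of its exon bases, 42.9% overlap Dvl2 on the other strand, and how reads there were counted is not given in the sources used here. Dvl2 itself had a log2 fold change of 0.06 (adjusted p = 0.842). Acadl, for long chains, rose from 1322, 1099.6 and 1322 to 1805, 1639 and 2182 reads (0.58, SE 0.13, adjusted p = 0.0146). The call of Acadl was lost without BODIPY-low replicate 2 or BODIPY-high replicate 3 (adjusted p up to 0.0712).

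The other 3 dehydrogenases did not pass in the main test. Acadm, for medium chains, had 1823, 1763 and 1633 normalised reads in BODIPY-low against 2199.9, 1842 and 2426 in BODIPY-high libraries, with a narrow gap between the groups (0.30, SE 0.12, adjusted p = 0.128). Acadm passed in 1 of the 15 alternatives, without BODIPY-high replicate 2 (adjusted p = 0.0408). Acadsb, for short branched chains, had 1673 to 1898 and 2072 to 2463 reads (0.36, SE 0.11, adjusted p = 0.0522). Acadsb lay close to the threshold and passed in 5 of the 15 alternatives, among them DESeq2 (adjusted p = 0.0213) and the fit without BODIPY-high replicate 2 (adjusted p = 0.0292). Acads, for short chains, had 1427, 1470.4 and 1461 reads in BODIPY-low against 1294.5, 1622 and 1503 in BODIPY-high libraries. Its fold change was 0.01 (SE 0.11, adjusted p = 0.953), and the groups overlapped.

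All 6 genes of hydration, second dehydrogenation and thiolysis rose, and for each of them the groups did not overlap. Acaa2, the mitochondrial thiolase of long and medium chains, counted 899.9, 765 and 797 normalised reads in BODIPY-low against 2564, 1880.2 and 2427 in BODIPY-high replicates 1, 2 and 3. It is the largest rise among abundant members, 2.79-fold between the means (log2 fold change 1.47, SE 0.14, adjusted p = 7.94e-05), and its adjusted p was at most 0.0012 with any 1 library left out. Hadha and Hadhb encode the alpha and beta subunits of the trifunctional protein, which carries out the last 3 steps on long chains. Hadha went from 1831, 1719.8 and 1828 to 2209, 2215 and 2306 reads (0.32, SE 0.09, adjusted p = 0.0422). Hadhb went from 3474, 3205 and 3323 to 4697, 4337 and 4682 reads (0.46, SE 0.09, adjusted p = 0.00547). Per kilobase Hadhb stood at 3.65 times the level of Hadha in BODIPY-low against 4.0 times in BODIPY-high libraries. Hadha lost its call with any 1 library left out (adjusted p 0.0542 to 0.169), with total-read scaling and with a minimum mean of 50 reads. Of the 100-base windows of the Hadhb transcript, 52.8% also occur in Gm13910, and the count of Hadhb is uncertain to that extent.

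Hadha and Hadhb lie head to head on chromosome 5, with 85 bases between their outermost starts in the GENCODE annotation. Their promoter windows (250 bases before to 50 after the start, from RefSeq on GRCm38.p6) share 228 of 300 bases. The RefSeq starts of these windows differ from the GENCODE starts. The window of Hadhb, chr5:30155003-30155302 on the plus strand, is shown because it also covers most of the Hadha window. It is written 5′ to 3′, and none of the motifs searched for is in it.
Hadhb: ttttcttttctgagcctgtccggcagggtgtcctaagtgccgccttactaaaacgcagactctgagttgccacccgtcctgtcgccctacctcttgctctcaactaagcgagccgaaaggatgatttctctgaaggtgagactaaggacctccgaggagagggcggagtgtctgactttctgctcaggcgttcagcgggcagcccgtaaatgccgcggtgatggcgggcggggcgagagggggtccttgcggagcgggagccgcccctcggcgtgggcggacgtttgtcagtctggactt

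Genes that act on shorter chains at the same steps also rose. Echs1, the short-chain enoyl-CoA hydratase, went from 1929, 1934 and 1777 to 2290.3, 2701 and 2334 normalised reads (log2 fold change 0.37, SE 0.10, adjusted p = 0.0354). Hadh, the matching hydroxyacyl-CoA dehydrogenase, went from 963, 850.3 and 932 to 1328, 1142 and 1471 (0.52, SE 0.13, adjusted p = 0.0218). Hsd17b10, a dehydrogenase that also serves isoleucine breakdown and mitochondrial tRNA processing, went from 512, 293 and 365 to 599, 564 and 696 (0.70, SE 0.20, adjusted p = 0.0457). The BODIPY-low value of replicate 1 was the highest of its group for Hsd17b10, close below the lowest BODIPY-high value. These 3 calls were sensitive to single libraries. Echs1 passed only without BODIPY-high replicate 1, Hsd17b10 only without BODIPY-low replicate 1, and Hadh in 3 of 6 such fits (adjusted p up to 0.150, 0.171 and 0.10). Hsd17b10 also missed the threshold with edgeR (adjusted p = 0.0530).

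Auxiliary enzymes rearrange the double bonds of unsaturated fatty acids so that they can enter the cycle. Eci1, the mitochondrial enoyl-CoA isomerase, had 432, 373 and 439 normalised reads in BODIPY-low against 629, 689 and 792 in BODIPY-high replicates 1, 2 and 3, with no overlap (log2 fold change 0.76, SE 0.15, adjusted p = 0.00771). Ech1, a dienoyl-CoA isomerase found in mitochondria and peroxisomes, went from 2346, 1944 and 1959.8 to 2736, 2837 and 2977 (0.46, SE 0.10, adjusted p = 0.0149). The call of Ech1 was lost without replicate 2 or 3 of BODIPY-low or replicate 3 of BODIPY-high (adjusted p up to 0.0768). Eci2, an isomerase shared with peroxisomes, had 977 to 1069 and 1109.9 to 1389.7 reads and did not pass (0.28, adjusted p = 0.158). Decr1, the mitochondrial dienoyl-CoA reductase, had 545 to 597 and 679.6 to 782 reads and did not pass either (0.32, adjusted p = 0.143). Neither Eci2 nor Decr1 overlapped between the groups.

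All 3 genes of electron transfer rose. Etfa and Etfb encode the heterodimer that takes electrons from the acyl-CoA dehydrogenases, and Etfdh the membrane enzyme that hands them to ubiquinone. Etfb (chromosome 7, 43444083 to 43457800) counted 1103, 683 and 787 normalised reads in BODIPY-low against 1554, 1474 and 1702 in BODIPY-high replicates 1, 2 and 3 (log2 fold change 0.90, SE 0.17, adjusted p = 0.00477). Etfa had 1122, 905 and 814 in BODIPY-low against 1573, 1486 and 1626 in BODIPY-high libraries (0.73, SE 0.13, adjusted p = 0.00453). The groups did not overlap for either subunit, and BODIPY-low replicate 1 was the highest of its group for both. Etfdh went from 1243, 1266 and 1080.1 to 1758, 1464 and 1618 (0.43, SE 0.12, adjusted p = 0.0340), and its call held in 2 of 6 fits with a library left out, those without BODIPY-low replicate 1 and BODIPY-high replicate 2 (the highest adjusted p was 0.153). The Etfa to Etfb ratio per kilobase was 0.722 in BODIPY-low against 0.637 in BODIPY-high libraries. Of the exon bases of Etfb, 53.0% are shared with Gm45233 on the same strand, which was not analysed here, so the count of Etfb is uncertain.

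**Figure D2:**
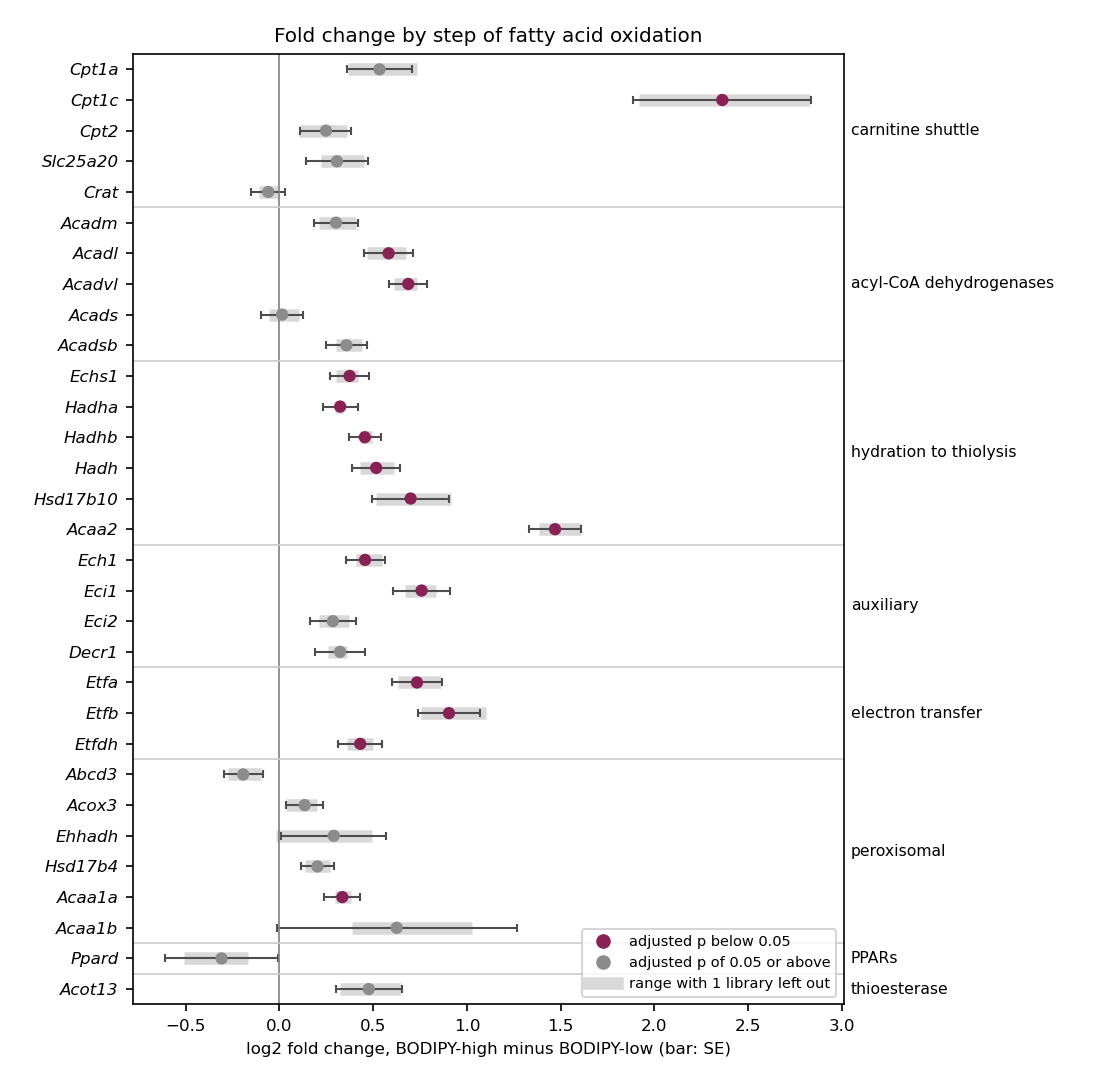
Log2 fold change of each tested gene, BODIPY-high minus BODIPY-low (x axis), by step (rows). Points are limma estimates, bars their SE, grey bands the range with 1 library left out, and purple points passed at an adjusted p below 0.05. Purple points fill the hydration to thiolysis and electron transfer steps, and the peroxisomal step has 1, Acaa1a.

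Promoter windows were found for 27 members (28 windows), and not for Crat, Acaa2, Decr1, Hsd17b4 and Acot13. The direct repeat to which PPARs bind, searched as AGGTCA, any base and AGGTCA, matched in 0 of the 28 windows and in 0.04% of all 32851 RefSeq windows of this length, both strands searched. AAGGTCA, the extended form that holds AGGTCA, matched for Acadm alone, against 4.72% of all windows. A single AGGTCA, part of that repeat, matched for Acadm, Acadvl, Cpt1a, Cpt1c and Echs1, 17.9% of member windows against 16.3% of all windows. The motif of NRF1, a regulator of nuclear genes for mitochondria, searched as GCGCA, any base and GCGC, matched for Etfb, Etfdh, Abcd3 and Ppara, 14.3% of member windows against 4.60% of all. Of these 4 genes Etfb and Etfdh rose, Abcd3 did not pass and Ppara was too low to test. The windows of Etfb (chr7:43443822-43444121, plus strand), Etfdh (chr3:79628718-79629017, minus strand) and Acadvl (chr11:70015379-70015678, minus strand) are shown. Etfb and Etfdh are the called genes with an NRF1 match, and Acadvl has the lowest adjusted p of the 3 called genes with AGGTCA, the others being Cpt1c and Echs1. Capitals mark the NRF1 motif in the Etfb and Etfdh windows and AGGTCA in the Acadvl window, 5′ to 3′ on the strand of the gene. A match describes letters in the window, not binding.
Etfb: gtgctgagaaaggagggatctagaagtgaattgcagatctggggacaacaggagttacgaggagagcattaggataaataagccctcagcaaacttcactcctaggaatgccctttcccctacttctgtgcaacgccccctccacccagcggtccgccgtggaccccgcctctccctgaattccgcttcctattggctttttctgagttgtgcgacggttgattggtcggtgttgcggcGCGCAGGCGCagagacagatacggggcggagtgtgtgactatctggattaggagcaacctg
Etfdh: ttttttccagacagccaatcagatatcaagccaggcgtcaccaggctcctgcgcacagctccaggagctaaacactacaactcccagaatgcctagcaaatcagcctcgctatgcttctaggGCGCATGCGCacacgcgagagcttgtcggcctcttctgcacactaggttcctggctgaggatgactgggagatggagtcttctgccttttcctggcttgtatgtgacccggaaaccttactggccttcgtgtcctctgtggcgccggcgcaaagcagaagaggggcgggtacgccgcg
Acadvl: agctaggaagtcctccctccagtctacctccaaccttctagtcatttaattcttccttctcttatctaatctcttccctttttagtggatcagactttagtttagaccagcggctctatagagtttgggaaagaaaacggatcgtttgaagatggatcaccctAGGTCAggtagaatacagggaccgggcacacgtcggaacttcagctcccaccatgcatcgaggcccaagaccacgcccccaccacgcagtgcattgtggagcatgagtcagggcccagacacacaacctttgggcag

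Of the 6 peroxisomal members only Acaa1a rose. Acaa1a, the peroxisomal thiolase (chromosome 9, 119339676 to 119350299), counted 2032, 2157 and 2241 normalised reads in BODIPY-low against 2532, 2839.5 and 2743 in BODIPY-high replicates 1, 2 and 3 (log2 fold change 0.34, SE 0.10, adjusted p = 0.0404). The groups did not overlap, but the call held in 1 of 6 fits with a library left out (adjusted p 0.0337 to 0.126) and was lost with total-read scaling. Its close copy Acaa1b had 19.4, 7.46 and 8.35 reads in BODIPY-low against 13.2, 22.7 and 16.7 in BODIPY-high libraries (0.63, SE 0.64, adjusted p = 0.585). Of the 100-base windows of Acaa1a 21.6% also occur in Acaa1b, and reads from these stretches cannot be assigned to 1 copy.

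The most abundant member of all per kilobase was Hsd17b4, the bifunctional hydratase and dehydrogenase of peroxisomes. It had 5607, 6717 and 6159 normalised reads in BODIPY-low against 6814, 7339 and 7071 in BODIPY-high libraries, which lay close above (log2 fold change 0.20, SE 0.09, adjusted p = 0.175). Acox3, a peroxisomal oxidase of branched chains, had 5442, 5469 and 5437 reads in BODIPY-low against 6868, 5718 and 5449.6 in BODIPY-high libraries. Of these, BODIPY-high replicate 1 stood apart and replicate 3 lay within the range of BODIPY-low (0.13, SE 0.10, adjusted p = 0.425). Abcd3, the transporter of acyl groups into peroxisomes, had 3190.2, 3528 and 4075 reads in BODIPY-low against 3214, 3161 and 3014 in BODIPY-high libraries (-0.19, SE 0.10, adjusted p = 0.267). Ehhadh, the other bifunctional enzyme and a classic PPAR alpha target in liver, had 319, 430.5 and 248 reads in BODIPY-low against 316, 324 and 609 in BODIPY-high libraries (0.29, SE 0.28, adjusted p = 0.562). Its groups overlapped, and only BODIPY-high replicate 3 was high.

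For 3 chosen gene pairs, the ratio of a mitochondrial to a peroxisomal enzyme of the same step was compared within each library. Such a ratio needs no scaling between libraries. For thiolysis, log2(Acaa2/Acaa1a) was -1.17, -1.49 and -1.49 in BODIPY-low against 0.02, -0.59 and -0.18 in BODIPY-high replicates 1, 2 and 3, a difference of 1.14. For the first dehydrogenation, log2(Acadvl/Acox3) was -1.49, -1.54 and -1.73 in BODIPY-low against -1.17, -1.02 and -0.91 in BODIPY-high libraries, a difference of 0.55. In both ratios every BODIPY-high library lay above every BODIPY-low library (p = 0.1 each in an exact two-sided permutation test, the least that 3 against 3 libraries allow, adjusted p = 0.15 over 3 ratios). Acaa2 and Acadvl had the largest fold changes of their steps, so both ratios largely restate those rises and do not stand for the compartments. Hadhb, also of thiolysis, had a log2 fold change of 0.46 against 0.34 for Acaa1a, and their ratio was not analysed. For the middle steps, log2(Hadha/Hsd17b4) was -1.61, -1.96 and -1.75 in BODIPY-low against -1.62, -1.73 and -1.62 in BODIPY-high libraries and overlapped (exact two-sided permutation p = 0.4, adjusted p = 0.4).

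**Figure D3:**
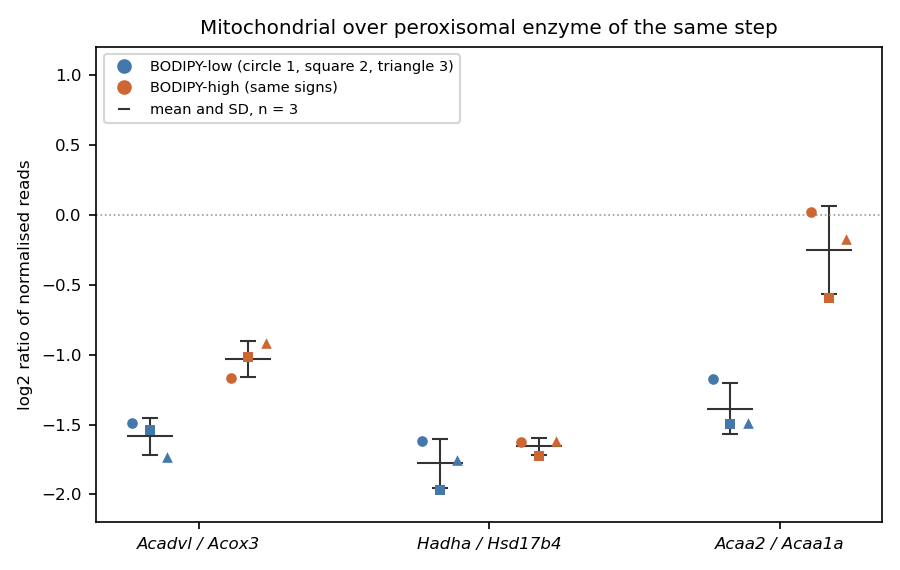
Log2 ratio of normalised reads of a mitochondrial to a peroxisomal enzyme of the same step (y axis) in each library, for 3 gene pairs (x axis). Signs are single libraries, and black marks are means with SD (n = 3). The orange BODIPY-high signs lie above the blue BODIPY-low signs for Acadvl/Acox3 and Acaa2/Acaa1a and overlap them for Hadha/Hsd17b4.

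The PPARs themselves were low. Ppara had 3.43, 0 and 2.78 normalised reads in BODIPY-low against 7.54, 2.27 and 23.8 in BODIPY-high replicates 1, 2 and 3, and was not tested. Ppard had 74.3, 108 and 121 reads in BODIPY-low against 72.5, 84.9 and 81.8 in BODIPY-high libraries, which overlapped (log2 fold change -0.31, SE 0.30, adjusted p = 0.564). Acot13, a thioesterase that frees fatty acids from CoA at mitochondria, had 609, 388 and 472 reads in BODIPY-low against 624, 717 and 674 in BODIPY-high libraries. It did not pass (0.48, SE 0.18, adjusted p = 0.106), though without BODIPY-low replicate 1 its adjusted p was 0.0312.

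Levels between genes can be set side by side only per length. Per kilobase of principal transcript, Hsd17b4, Ech1 and Hadhb led in both groups, with mean levels of 2295, 1644 and 1628 normalised reads per kilobase in BODIPY-low against 2636, 2249 and 2232 in BODIPY-high libraries. Acaa2 moved from rank 17 of 32 to rank 8 (541 to 1511 normalised reads per kilobase) and Etfb from rank 8 to rank 4 (961 to 1765). Abcd3 moved from rank 7 to rank 14 (1031 to 897) and Crat from rank 9 to rank 15 (895 to 857). Ppard, Cpt1c, Acaa1b and Ppara held the last 4 ranks in both groups.

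**Figure D4:**
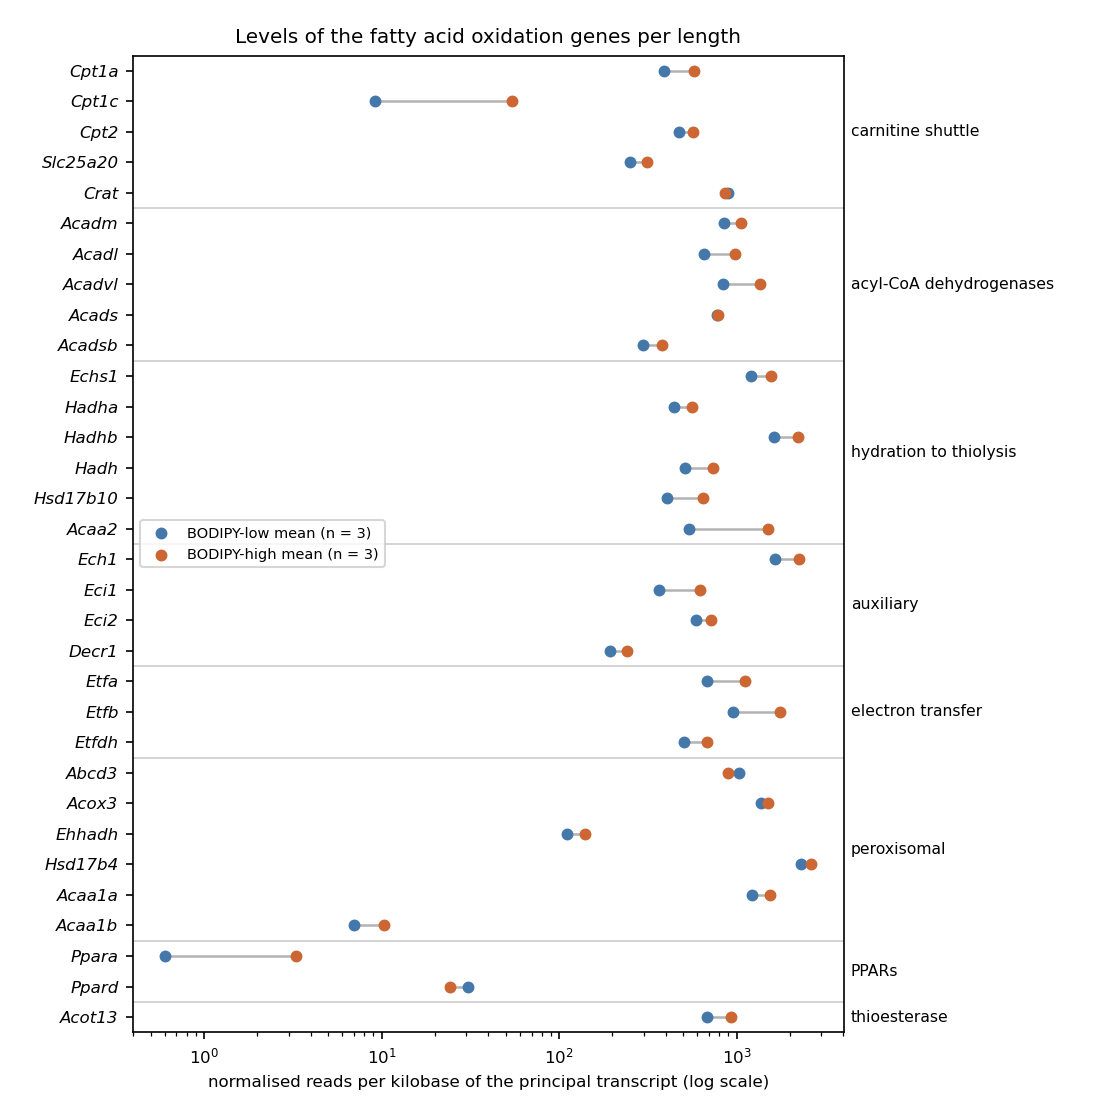
Mean level of all 32 genes in normalised reads per kilobase of the principal transcript (x axis, log scale) in BODIPY-low (blue) and BODIPY-high (orange) libraries, n = 3 each, by step (rows). Most orange points lie to the right of the blue ones, while Abcd3, Crat and Ppard have them in the other order.

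Of 19 tested genes from a list of enzymes next to the members, 7 rose and 0 fell (median log2 fold change 0.38). Acad8, a dehydrogenase of valine breakdown, went from 839, 882 and 864 to 2000.2, 1483 and 2145 normalised reads (1.10, SE 0.14, adjusted p = 5.64e-04). Ivd, the isovaleryl-CoA dehydrogenase of leucine breakdown, went from 854, 729 and 716 to 1392, 1479 and 1636 (0.97, SE 0.12, adjusted p = 5.35e-04). Mcee, which acts on methylmalonyl-CoA, rose by 1.06 (adjusted p = 0.00615). Acad8 and Ivd pass electrons to the same flavoprotein as the fatty acid dehydrogenases. Acacb, whose product malonyl-CoA inhibits carnitine transfer, had 0, 3.20 and 12.99 reads in BODIPY-low against 43.3, 52.1 and 131 in BODIPY-high libraries (4.12, SE 0.91, adjusted p = 0.0130), and lost its call without BODIPY-high replicate 3 (adjusted p = 0.0745).

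Of 15 further peroxisomal genes tested, 4 rose and 0 fell (median 0.32). Phyh, which starts the breakdown of phytanic acid, rose by 0.82 (adjusted p = 8.71e-04), and Cat, the catalase that removes the hydrogen peroxide of the oxidases, by 0.48 (adjusted p = 0.00353). Acox2, an oxidase of bile acid precursors, had 9.15, 0 and 1.86 reads in BODIPY-low against 47.1, 47.6 and 145 in BODIPY-high libraries (4.51, SE 0.88, adjusted p = 0.00682), a call lost without BODIPY-high replicate 3 (adjusted p = 0.0501). Of 15 tested peroxins, which build the organelle, 0 rose and 0 fell by limma and by edgeR (median -0.04), while DESeq2 called 1 rise and 0 falls and limma had 1 rise and 0 falls at an unadjusted p below 0.05. The summed level of the peroxins was 14618 to 15231 normalised reads in BODIPY-low against 15047 to 15106 in BODIPY-high libraries.

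Of 12 tested PPAR partners and targets 4 rose and 0 fell by limma (median 0.18), with 1 fall at an unadjusted p below 0.05, 0 by edgeR and 1 by DESeq2. The lists of mitochondrial and peroxisomal neighbours had 0 falls in all of these counts. Ppargc1a, the coactivator PGC-1 alpha, had 10.3, 4.26 and 12.1 normalised reads in BODIPY-low against 169.6, 107.6 and 214 in BODIPY-high replicates 1, 2 and 3, with no overlap (4.11, SE 0.49, adjusted p = 3.42e-04). Acot1, a cytosolic thioesterase, rose by 2.88 (adjusted p = 0.00203), Pdk4, which shuts pyruvate oxidation, by 3.63 (adjusted p = 0.0140) and Ucp2, a carrier of the inner membrane, by 0.38 (adjusted p = 0.0193). Among the 5 genes of ketone bodies 4 rose. Bdh1 rose by 4.58 (adjusted p = 0.0112) and Oxct1, which serves ketone use, by 0.31 (adjusted p = 0.0321). Bdh2 had 3 reads in all BODIPY-low and 232 in all BODIPY-high libraries, a ratio of 69.8 with an exact interval of 23.6 to 341 that covers counting error only. Single libraries decided part of these calls. Pdk4 was lost without BODIPY-high replicate 1 or 3, Bdh1 without BODIPY-high replicate 3, and Ucp2 and Oxct1 passed in 2 and 1 of 6 such fits (adjusted p up to 0.107).

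The fractions that differ in these genes differ in choroid plexus reads as well. The log2 fold changes of the choroid plexus markers ran from 3.82 to 4.86, and those of the 15 members called from 0.32 to 2.36. Those of Ppargc1a, Acacb, Acox2 and Bdh1, all with few reads in BODIPY-low libraries, were 4.11, 4.12, 4.51 and 4.58. The 2 tested ependyma markers rose as well (median 4.69). By limma 1 of 6 border macrophage, 1 of 6 astrocyte and 1 of 5 neuron markers rose, and 3 of 5 monocyte markers fell. Of the 4 oligodendrocyte markers 0 rose by limma, against 1 by edgeR, 2 by DESeq2 and 3 at an unadjusted p below 0.05 in limma. Of the 5 endothelium markers 0 rose in any of these counts. The summed shares of the border macrophage, neuron and oligodendrocyte lists were nonetheless higher in every BODIPY-high than in every BODIPY-low library (p = 0.1 each in an exact two-sided permutation test, its lower limit). Border macrophage markers took 0.00275% to 0.00379% of reads in BODIPY-low and 0.00459% to 0.00602% in BODIPY-high, neuron markers 0.000116% to 0.000131% and 0.000495% to 0.000572%, and oligodendrocyte markers 0.00677% to 0.00875% and 0.00923% to 0.0129%. How much of each member's reads came from cells other than microglia was not tested.

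**Figure D5:**
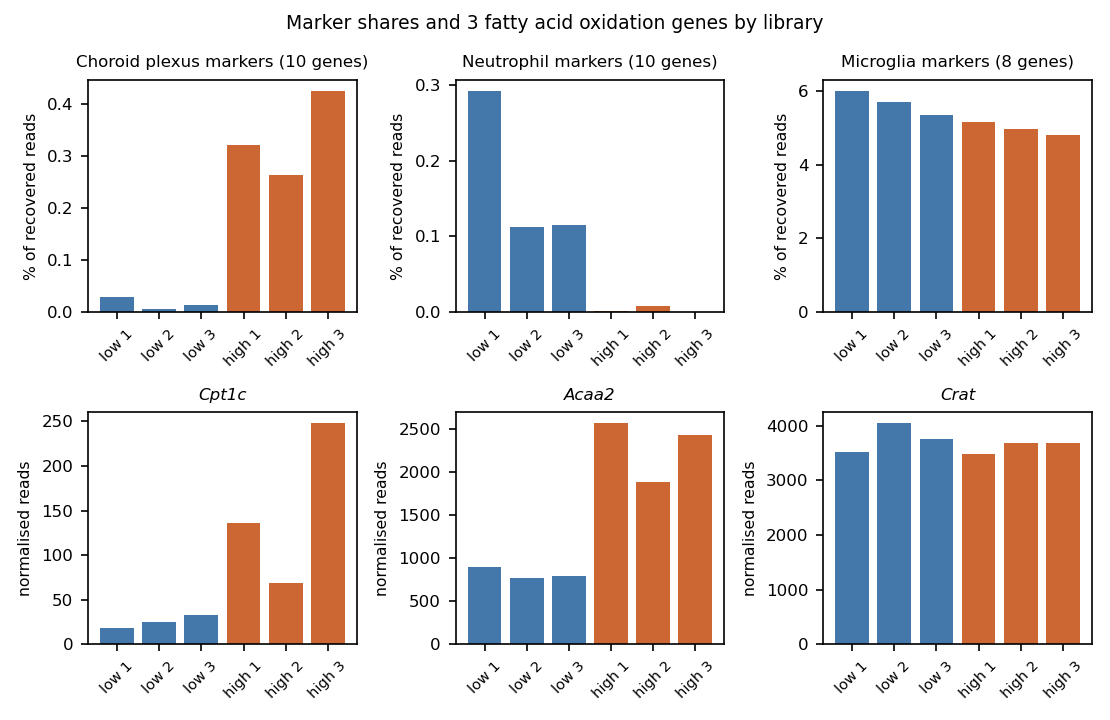
Upper row, percent of recovered reads in each library (x axis) taken by choroid plexus, neutrophil and microglia markers. Lower row, normalised reads of Cpt1c, Acaa2 and Crat in the same libraries, where blue bars are BODIPY-low, orange bars BODIPY-high and every axis starts at 0. Cpt1c and Acaa2 are higher in all 3 BODIPY-high libraries, as the choroid plexus markers are, and Crat overlaps between the groups.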

How the data were processed

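RNA was measured in 6 libraries of sorted hippocampal microglia, made per the labels' protocols with the SmartSeq v4 and Nextera XT kits. Per the series' design text and the submitters' processing notes, reads were checked with FastQC 0.11.4, mapped with STAR 2.5.3a to mm10 (the notes also list mm9) and counted per gene by STAR. Neither annotation nor strand setting is given in the sources used here. What the authors deposited is a signal, namely read counts divided by 1 size factor per library, and the notes name DESeq2. At a tolerance of 0.01 read, 100% of values came out as whole reads, and 1642 genes were called on these reads by edgeR and 2126 by DESeq2, against 1706 by the main test. The table has 16179 genes.

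The main test was limma 3.58.1 run in R 4.3.3, two-sided, with a trended variance and no block. It used log2(value + 1) of 12821 genes whose mean reached 10, with Benjamini-Hochberg adjustment over all of them and a threshold of 0.05. Fold changes are on that scale, which understates changes of low genes. Alternatives were edgeR 4.0.16, DESeq2 1.42.0, other pseudocounts, filters, scaling and variance models, the replicate number as a block, and leaving out each library. Positions and transcript lengths are from GENCODE M21 (GRCm38, the assembly of mm10). The 32 members, the related lists and the cell type markers were chosen with earlier results of these data known. Named genes were all members, up to 4 largest changes among called genes per related list, and the leading gene of each marker list. Some genes of the related lists are not reported here by name. Intervals on reads cover counting error only, because PCR copies carry no molecular identifiers.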

Additional observations from a re-analysis of the deposited data

How the results depend on the processing

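Of 464 refits of single members, 415 kept the direction and the side of the threshold, 37 lost a call and 9 gained one. The log2 fold change turned negative, without a call, for Acads without BODIPY-high replicate 2 (-0.0583) or 3 (-0.0035) and for Ehhadh without BODIPY-high replicate 3 (-0.0193), and the cause was not tested. With 1 library left out Acads ranged up to 0.104 and Ehhadh up to 0.494. The 15 calls among members came to 13 to 17 under other pseudocounts, filters, scaling, variance models and count tests, with 0 falls in every setting. With 1 library left out, between 7 and 14 members rose, 689 to 1295 of all tested genes rose and 151 to 523 fell, against 1255 and 451 with all 6 libraries. The members' median log2 fold change stayed between 0.36 and 0.43 over all 15 alternatives. Ppara, with 0 to 23.8 normalised reads per library, was too low to test.

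The replicate numbers in the titles were tried as a replicate block. Deviations of same-numbered libraries from their group means correlated at 0.11, 0.14 and 0.07 across genes. Libraries of unlike number correlated at -0.1153 to 0.0016, so every library correlated best with the one of its own number. The labels do not state whether the numbers pair the libraries, and the main test used no block. With the replicate block 16 members and 1451 of all tested genes rose and 760 fell.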
